A study of Homo sapiens with 6 samples.

Results

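The genes described here are 24 protein-coding genes with lower RNA levels in EA.hy926 cells after hypoxia than in normoxia. They were chosen from the deposited expression table by its own values. Each had a normoxia mean of at least 100 scaled reads and a hypoxia mean of at most 0.6 times the normoxia mean. In addition, the highest hypoxia library lay below the lowest normoxia library. HIF1A and TXNIP, which meet these numbers with ratios of 0.287 and 0.228, and the mitochondrially encoded genes were left out by name. The rule was applied to 9264 candidate genes of the 22153 in the table, and 0.259% of the candidates met it. The reverse rule, for genes higher in hypoxia, was met by 120 of 9160 genes, or 1.31%. The order of these 2 counts turned without hypoxia library 2, where 151 genes met the rule and 121 the reverse rule. Because the choice used the same libraries, the differences between the groups in these 24 genes are a description and carry no test.

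EA.hy926 cells are a hybrid human line, obtained by fusion of endothelium from the umbilical vein with A549 lung carcinoma cells. Hypoxia is represented by 3 libraries of cells kept for 8 h in an incubator at 1% oxygen, and normoxia by 3 libraries of cells at 20% oxygen. All cells were of this 1 line, grown to near confluence in high-glucose medium with serum, and polyadenylated RNA was sequenced. Values are whole read counts divided by a size factor per library, called scaled reads here, and the libraries held 17226736 to 18652704 reads.

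In low oxygen the alpha subunits of the hypoxia-inducible factors (HIF) escape destruction, pair with ARNT and switch on genes of glucose use, oxygen delivery and mitophagy. HIF acts mostly as an activator. Falls in RNA are usually attributed to repressors that hypoxia induces, to reduced transcription of growth and division genes, and to altered RNA turnover.

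Few genes of the whole table passed a test. With limma over 10237 genes, 10 genes passed an adjusted p of 0.05 (0.0977%), and 0 genes were lower in hypoxia. At an unadjusted p under 0.05, limma placed 275 of the 10237 genes in either direction, and 51 of all genes lower (0.498%). EdgeR also placed 0 genes lower at an adjusted p of 0.05, with 58 at an unadjusted p (0.567%), and DESeq2, with 58 genes called in either direction (0.402%), placed 6 lower (0.0416%) and 102 at an unadjusted p (0.708%). Of the 24 genes, 20 reached the limma filter on low values, and AHRR, MTARC1, NOS1AP and PPM1H did not. At an adjusted p of 0.05 limma called 0 of these 20, with 15 at an unadjusted p under 0.05, and edgeR called 0, with 20 at an unadjusted p. DESeq2 called 2 of the 24 (RAB3IL1 and FLRT2), with 23 at an unadjusted p. The rule used the same contrast, so nothing is read from these counts. The libraries carried endothelial markers, with 18 of 20 endothelial markers at 1 FPKM or more in at least 3 libraries and a summed level of 1488 to 3244 FPKM in hypoxia and 1422 to 2572 in normoxia. Of 17 epithelial markers 4 reached that level, at 620.3 to 963 FPKM in hypoxia and 696 to 1124 in normoxia, with CDH1, CLDN3, ELF3, ESRP1, GRHL2 and KRT5 at 0 or not listed. Fibroblast and mural markers summed to 13.7 to 14.96 FPKM in hypoxia and 9.91 to 21.7 in normoxia, with 3 of 13 at 1 FPKM or more and CNN1, COL3A1, DCN, LUM and PDGFRA at 0 or not listed. Leukocyte markers summed to 1.30 to 3.21 FPKM in hypoxia and 0.815 to 3.42 in normoxia, with 1 of 12 at 1 FPKM or more and PTPRC, CD3D, CD3E, MS4A1, FCGR3A and NKG7 at 0 or not listed. What part such differences between libraries have in the results below was not tested.

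The promoters of RAB3IL1 and FLRT2 are shown because these genes had the highest ratios of the lowest normoxia to the highest hypoxia library and stand at the GC extremes of the set. The AHRR promoter is shown because its product represses a receptor that shares the partner ARNT with HIF. Sequences are from RefSeq (GRCh38.p14), 250 bases before to 50 after the annotated start, with the first listed start used. Capitals mark ACGTG or GCGTG on either strand, the core letters bound by HIF, of which GCGTG is also the core bound by the aryl hydrocarbon receptor.
RAB3IL1 (chr11:61920235-61920534, minus strand): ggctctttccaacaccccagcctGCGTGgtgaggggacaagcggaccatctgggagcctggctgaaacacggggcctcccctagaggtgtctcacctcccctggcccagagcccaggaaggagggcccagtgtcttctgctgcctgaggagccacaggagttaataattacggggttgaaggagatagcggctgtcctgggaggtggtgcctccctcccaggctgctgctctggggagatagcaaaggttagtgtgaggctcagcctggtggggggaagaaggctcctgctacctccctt
FLRT2 (chr14:85529894-85530193, plus strand): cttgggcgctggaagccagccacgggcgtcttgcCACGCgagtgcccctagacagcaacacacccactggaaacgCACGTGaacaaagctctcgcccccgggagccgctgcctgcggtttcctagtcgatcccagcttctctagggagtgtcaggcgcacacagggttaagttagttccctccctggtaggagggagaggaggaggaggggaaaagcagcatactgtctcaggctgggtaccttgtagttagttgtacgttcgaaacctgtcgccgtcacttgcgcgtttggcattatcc
AHRR (chr5:321464-321763, plus strand): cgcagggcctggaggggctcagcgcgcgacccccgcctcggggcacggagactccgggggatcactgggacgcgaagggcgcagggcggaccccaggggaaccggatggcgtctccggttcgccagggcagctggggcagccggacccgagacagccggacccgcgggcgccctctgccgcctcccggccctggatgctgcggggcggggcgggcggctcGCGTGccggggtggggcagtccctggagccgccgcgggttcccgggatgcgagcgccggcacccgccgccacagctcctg
The RAB3IL1 window has 1 match and the FLRT2 window 3, of which 2 overlap as both strands of the E-box CACGTG. The AHRR window has 1 match. RefSeq windows were found for 21 of the 24 genes, with 29 windows in all. Of these 29 windows, 9 (31.0%) hold ACGTG and 14 (48.3%) hold GCGTG, against 21.4% and 36.5% of all 35116 windows in the table. All windows are not limited to the candidate genes. Some genes have several windows, and the 2 windows of MSTO1 overlap, so the windows are not independent. By gene, 8 of the 21 hold ACGTG and 10 hold GCGTG in at least 1 window. The E-box CACGTG, which contains ACGTG on both strands, is in 5 (17.2%) of the windows of these genes and in 7.26% of all windows. The median GC content is 65.0% in the windows of these genes and 58.7% in all windows. A match is a run of letters and does not show a bound site.

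On the deposited scale, without a GC correction, the widest separations of the groups were in RAB3IL1, FLRT2 and UCP2. RAB3IL1 encodes an exchange factor that loads Rab3 and Rab8 GTPases, which guide secretory vesicles, with GTP. Its gene spans chr11:61897301-61920269 on the minus strand (GENCODE 29, GRCh38), and it had 86.1, 66.4 and 68.4 scaled reads in hypoxia, against 200.2, 179 and 242 in normoxia. Its ratio of 0.356 was the lowest of the set, with means of 73.6 ± 10.8 in hypoxia and 207 ± 31.9 in normoxia (SD, n = 3 each, as for all means below). In these bulk libraries a lower level can mean fewer cells that express the gene or less RNA per cell, and the values cannot tell these apart. The lowest normoxia library stood 2.08 times above the highest hypoxia library. FLRT2 (chr14:85530144-85654426, plus strand) is a leucine-rich repeat membrane protein that binds UNC5 and latrophilin receptors. It had 366, 385 and 405 in hypoxia and 805, 987 and 787 in normoxia. Its means of 385 ± 19.4 in hypoxia and 859.6 ± 110.5 in normoxia give a ratio of 0.448. In both genes the groups were well apart on this scale, but for FLRT2 a correction for GC content ended this: its highest corrected hypoxia value was 479 and its lowest corrected normoxia value 434. UCP2, a carrier of the inner mitochondrial membrane, was the other gene of this kind, with 590.1, 595 and 582 in hypoxia and 997, 1010.4 and 1221 in normoxia. Its hypoxia SD of 6.79 was small beside a hypoxia mean of 589, and its ratio was 0.547. On this scale, in RAB3IL1, FLRT2 and UCP2 alone among the 24 genes the gap between groups exceeded the summed ranges within them, at 1.13, 1.60 and 1.69 times. After the GC correction UCP2 had 643, 513 and 638 in hypoxia and 835, 973 and 1458 in normoxia. RAB3IL1 then had 96.5, 53.3 and 76.9 in hypoxia and 160, 174 and 293 in normoxia. Their groups stayed apart, but the gap no longer exceeded the summed ranges. It did so after the correction in CDC25B and PPM1H.

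**Figure D1:**
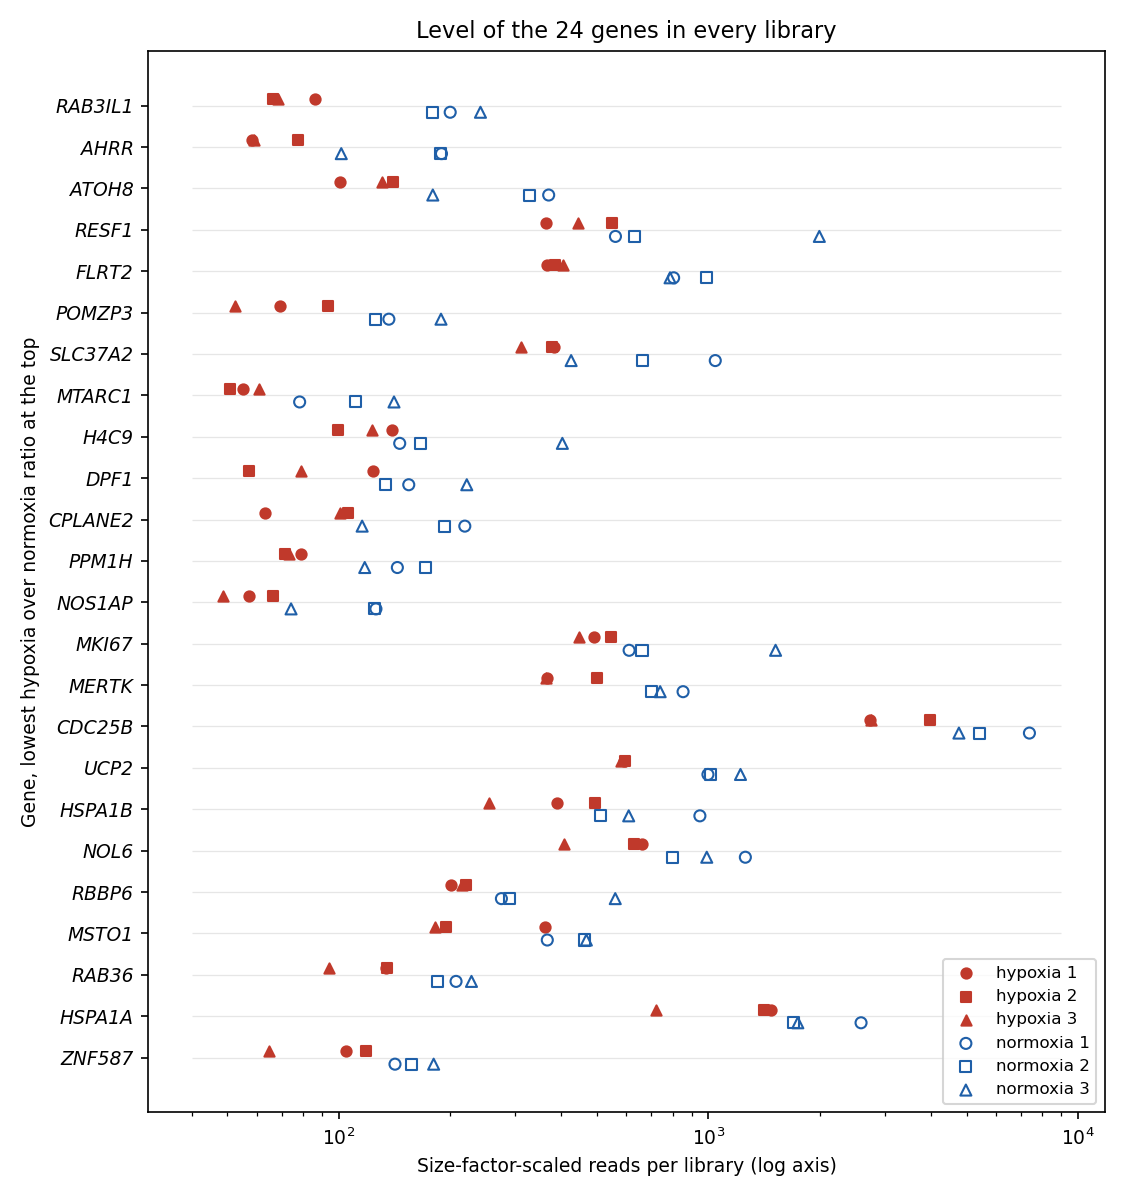
Scaled reads of the 24 genes in each hypoxia library (filled red) and each normoxia library (open blue), on a log axis, with the lowest ratio at the top. FLRT2 and UCP2 have a clear gap between colours, while RESF1, H4C9 and MKI67 have 1 normoxia library (triangle) far to the right of the other 2.

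No tested relative of RAB3IL1 or FLRT2 passed the test. RAB3IL1 itself did not pass limma, at a log2 difference of -1.42 (limma adjusted p = 0.232). A gene that did not pass, here or in the lists below, is therefore not shown to be unchanged. Of 41 listed genes of Rab3 and Rab8 exchange and granule exocytosis, 29 other than RAB3IL1 were tested, and 0 passed limma, DESeq2 or edgeR, with 0 at an unadjusted limma p under 0.05. Their log2 differences ran from -0.31 to 0.55, and the median of the whole list was 0.09, beside 0.00 over all genes tested. RAB3IP, the closest relative of RAB3IL1, had 78.8, 76.7 and 82.7 scaled reads in hypoxia and 35.0, 74.8 and 133 in normoxia, so that its groups overlapped. At low levels, SYTL2, an effector of Rab27 in granule docking, had 31.1, 27.997 and 29.5 scaled reads in hypoxia and 6.35, 8.52 and 1.88 in normoxia. RAB3A, a GTPase of synaptic and secretory vesicles, had 28.002, 34.2 and 36.1 in hypoxia and 23.3, 12.3 and 4.70 in normoxia. In both, every hypoxia library was above every normoxia library, the opposite direction to RAB3IL1. Both were named after their values were seen. Neither reached the limma filter, and their adjusted p by DESeq2 was 0.169 for SYTL2 and 1.00 for RAB3A. MYRIP, also named after its values were seen, went the same way as RAB3IL1. It had 51.9, 76.7 and 77.0 in hypoxia and 94.3, 88.1 and 90.3 in normoxia. MYRIP reached neither the limma filter nor an adjusted p of 0.05 by DESeq2. STX2, named in the same way, was higher in every hypoxia library, with 366, 420 and 369 in hypoxia and 326, 333 and 339 in normoxia. Of the FLRT list, 4 other genes were tested, and 0 passed limma, DESeq2 or edgeR, with 0 at an unadjusted limma p under 0.05. Their log2 differences ran from -0.16 to 0.05. FLRT1 averaged 4.32 scaled reads in hypoxia and 2.04 in normoxia. UNC5B, a netrin receptor that also binds FLRT2, had 36.3, 113 and 41.8 scaled reads in hypoxia and 98.5, 71.0 and 24.5 in normoxia, with overlapping groups.

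Other genes of traffic, cilia and receptor signalling had ratios between 0.511 and 0.584. RAB36, a small GTPase related to RAB34, had 134, 135 and 94.1 scaled reads in hypoxia and 208, 185 and 229 in normoxia, a ratio of 0.584. PPM1H, a phosphatase that removes phosphate from Rab proteins, had 78.8, 71.5 and 73.2 in hypoxia and 144, 171 and 118 in normoxia, a ratio of 0.516. CPLANE2, a GTPase-like part of the complex that builds primary cilia, had 63.3, 106 and 101 in hypoxia and 219, 193 and 116 in normoxia. Its normoxia library 3 lay close to the hypoxia libraries. MERTK, a receptor tyrosine kinase for GAS6 and protein S that acts in uptake of dying cells, had 366, 499.8 and 363 in hypoxia and 854, 702 and 740.1 in normoxia, a ratio of 0.535. AXL and TYRO3, the other receptors of that family, had log2 differences of 0.05 (95% interval -0.46 to 0.57) and -0.31 (95% interval -0.96 to 0.34) by limma, neither past the test (adjusted p = 1.00 for both). NOS1AP, an adaptor of neuronal nitric oxide synthase, had 57.0, 66.4 and 48.5 in hypoxia and 126, 125 and 74.3 in normoxia, and its normoxia library 3 was again the low one.

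Transcription and chromatin genes made up 6 of the 24. AHRR, the repressor of the aryl hydrocarbon receptor and itself a target of that receptor, had 58.1, 77.8 and 58.9 scaled reads in hypoxia and 189.6, 188 and 102 in normoxia. Its ratio of 0.406 was the second lowest. CYP1A1, the classic target of the same receptor, had 13.5, 12.4 and 15.2 in hypoxia and 49.8, 60.6 and 20.7 in normoxia. Its mean is below the one required by the rule. All hypoxia libraries were below all normoxia libraries, and the adjusted p by DESeq2 was 0.680. The receptor gene AHR had 88.2, 134 and 81.7 in hypoxia and 106, 101 and 146 in normoxia, and the target TIPARP had a log2 difference of -0.11 (95% interval -0.73 to 0.50, limma adjusted p = 1.00). The receptor gene and TIPARP thus had overlapping levels. In AHRR and CYP1A1 alike, normoxia library 3 was the lowest of the normoxia libraries.

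ATOH8, a basic helix-loop-helix transcription factor, had 101, 139.99 and 131 scaled reads in hypoxia and 369.6, 328 and 179.6 in normoxia, a ratio of 0.424. DPF1, a subunit of the BAF chromatin remodeller best known from neurons, had 123, 57.0 and 78.9 in hypoxia and 155, 134 and 222 in normoxia. ZNF587, a zinc finger protein, had 105, 118 and 64.6 in hypoxia and 142, 157 and 181 in normoxia. It sat just inside the limit at a ratio of 0.5996. RESF1, which assists SETDB1 in silencing retroelements, had 363, 549 and 444 in hypoxia and 560.3, 631 and 1995 in normoxia. Normoxia library 3 was far above the other normoxia libraries, and the ratio was 0.759 without that library and 0.425 with it. H4C9, a histone H4 gene of the replication-dependent kind whose RNA normally ends without a poly(A) tail, had 139, 99.5 and 123 in hypoxia and 146, 167 and 402 in normoxia. Its ratio was 0.505, or 0.770 without normoxia library 3.

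The genes of cell division and growth included the most abundant of the set. CDC25B, the phosphatase that activates CDK1 at entry into mitosis, had 2740.0, 3963 and 2747 scaled reads in hypoxia and 7381, 5402 and 4758 in normoxia. Per length it was the highest of the 24 genes, with mean levels of 40.9 FPKM in hypoxia and 75.9 in normoxia, and its ratio of scaled reads was 0.539. CDC25C, a phosphatase of the same family, had overlapping groups, with a log2 difference of -0.11 (95% interval -1.04 to 0.83, limma adjusted p = 1.00), and CDC25A had -0.68 (95% interval -1.66 to 0.31, adjusted p = 1.00). MKI67, which encodes the proliferation antigen Ki-67, had 491, 545 and 446 in hypoxia and 610.1, 661 and 1519 in normoxia. Its ratio moved to 0.777 without normoxia library 3, against 0.531 with it. MKI67 was the only gene of the set among 35 listed genes of mitosis and spindle, where 27 others were tested and 0 passed limma, DESeq2 or edgeR, with 0 at an unadjusted limma p under 0.05. RBBP6, a ubiquitin ligase that binds p53 and RB1 proteins, had 201, 221 and 216 in hypoxia and 275, 289 and 559.5 in normoxia, a ratio of 0.568, or 0.754 without normoxia library 3. NOL6, a protein of the nucleolus that takes part in making the small ribosomal subunit, had 663, 629 and 408 in hypoxia and 1258, 799 and 989 in normoxia, a ratio of 0.558. None of the 24 genes was among the 37 listed DNA replication genes or in the list of ribosome biogenesis, which does not hold NOL6. Yet 34 of the 37 replication genes had limma log2 differences below 0, with a median of -0.30. Over all genes tested, 5057 of 10235 with a distinct symbol were below 0, with a median of 0.00. Of the 37, 0 passed limma, DESeq2 or edgeR, with 0 at an unadjusted limma p under 0.05. These 37 genes were measured in the same 6 libraries and can move together, so the 34 of 37 is a description. Its cause was not tested.

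HSPA1A and HSPA1B encode the stress-inducible HSP70 chaperone. HSPA1A had 1478, 1413 and 721 scaled reads in hypoxia and 2586, 1703 and 1744 in normoxia, a ratio of 0.599. HSPA1B had 389, 493 and 255 in hypoxia and 948, 509 and 608 in normoxia, a ratio of 0.550. In both, hypoxia library 3 was the lowest and normoxia library 1 the highest of the 6. Their annotated transcripts are 96.7% identical over 2393 aligned bases, and 69.3% of the 75-base windows of HSPA1A also occur in HSPA1B. Reads of the pair may therefore be split between them or left out by the counting. Their promoters, shown because the pair shares them too, align with 92.6% identity over 299 bases. Capitals mark GAANNTTC, the pair of heat shock element units read on both strands, which is in 6.77% of all windows.
HSPA1A (chr6:31815293-31815592, plus strand): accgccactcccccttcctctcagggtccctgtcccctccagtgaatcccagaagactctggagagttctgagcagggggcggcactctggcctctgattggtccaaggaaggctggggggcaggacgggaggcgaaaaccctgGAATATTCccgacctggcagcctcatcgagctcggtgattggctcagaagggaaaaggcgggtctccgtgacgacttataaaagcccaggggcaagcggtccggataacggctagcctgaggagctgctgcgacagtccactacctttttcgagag
HSPA1B (chr6:31827488-31827787, plus strand): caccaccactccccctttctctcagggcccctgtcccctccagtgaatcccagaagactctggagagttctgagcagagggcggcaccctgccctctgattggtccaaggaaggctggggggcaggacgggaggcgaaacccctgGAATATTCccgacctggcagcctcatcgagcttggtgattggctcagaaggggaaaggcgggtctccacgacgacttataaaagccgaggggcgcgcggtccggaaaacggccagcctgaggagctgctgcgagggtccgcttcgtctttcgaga
Each window holds 1 match, with the same letters. Other chaperones and co-chaperones had levels that overlapped. DNAJB1 averaged 3923 ± 552 in hypoxia and 4046 ± 913 in normoxia, and HSPA8, the constitutive relative, averaged 38104 ± 12455 in hypoxia and 38831 ± 9756 in normoxia. HSPH1 averaged 1380.5 ± 148 in hypoxia and 2164 ± 1264 in normoxia, with 3592 in normoxia library 3.

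The remaining genes act in mitochondria or in sugar-phosphate transport, apart from POMZP3. MTARC1, a molybdenum enzyme of the outer mitochondrial membrane, had 55.0, 50.8 and 60.8 scaled reads in hypoxia and 78.4, 111 and 141 in normoxia, a ratio of 0.505. Its relative MTARC2 had a log2 difference of -0.18 (95% interval -0.71 to 0.36, limma adjusted p = 1.00). MSTO1, a cytosolic protein that supports mitochondrial fusion, had 361, 195 and 183 in hypoxia and 366, 462 and 467 in normoxia. Hypoxia library 1 and normoxia library 1 nearly met, at a lowest normoxia value 1.02 times the highest hypoxia value. SLC37A2, a sugar-phosphate exchanger of the endoplasmic reticulum, had 383, 377 and 311 in hypoxia and 1043, 664 and 425 in normoxia, a wide normoxia spread with a ratio of 0.502. POMZP3, a fusion of duplicated parts of POM121 and ZP3, had 69.5, 93.3 and 52.3 in hypoxia and 137, 126 and 189 in normoxia, a ratio of 0.476. Sequence shared with other genes limits several of these values. For POMZP3 59.4% of its 75-base windows occur in transcripts of other genes, for MSTO1 33.8% (mostly its pseudogene MSTO2P) and for ZNF587 32.4% (mostly ZNF814 on the opposite strand). The exons of POMZP3 overlap 770 bases of AC004980.1 and those of ZNF587 overlap 2445 bases of ZNF814, both on the opposite strand, and whether the counting used strand is not stated. To a smaller extent, AHRR shares 244 exon bases with PDCD6 and NOS1AP 178 with C1orf226, both on the same strand. Of their 75-base windows, 2.15% (AHRR) and 4.41% (NOS1AP) occur in transcripts of other genes. For 15 of the 24 genes no window was shared.

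Relatives of the 24 genes were also looked up by family after the set was known. Of 104 such genes, 101 were in the table and 68 were tested. Limma log2 differences were below 0 in 44 of the 68, with a median of -0.09. Over all genes tested, 5057 of 10235 were below 0, with a median of 0.00. Among these 68, 0 passed limma, DESeq2 or edgeR, with 0 at an unadjusted limma p under 0.05, and log2 differences ran from -0.68 to 0.46. Over all genes, only 275 of 10237 were at an unadjusted limma p under 0.05, so nothing is read from the 0. Of 17 gene lists, 3 held a gene of the set: RAB3IL1 in the Rab3 list, FLRT2 in the FLRT list and MKI67 in the mitosis list. The lists were written with earlier results of these data known. The Rab3 and FLRT lists cover the families of RAB3IL1 and FLRT2, so the count of 3 is no result.

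The 24 genes had a higher median GC content than the candidates, but this direction depended on single libraries. The median GC content of all exons was 56.7%, with values from 38.0% (FLRT2) to 63.6% (RAB3IL1). Over the candidates the median was 48.5%. The genes that met the rule without normoxia library 1 had a median of 41.6%, and those that met it without hypoxia library 3 had 46.8%, both below the candidates. In the 24 genes themselves 16 were above the candidates' median, and the 120 genes of the reverse rule had a median of 51.1%. Of the 24 genes, 13 lay above the upper quartile of the candidates (56.5%), which is 54.2% of them, and 3 (FLRT2, RESF1 and RBBP6) lay below the lower quartile (42.2%). The summed exon length had a median of 5353 bases, beside 5270.5 in the candidates, and it was 8705 bases in the genes that met the rule without normoxia library 1. Normoxia levels per length were lower, with a median of 4.30 FPKM beside 6.42 in the candidates.

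**Figure D2:**
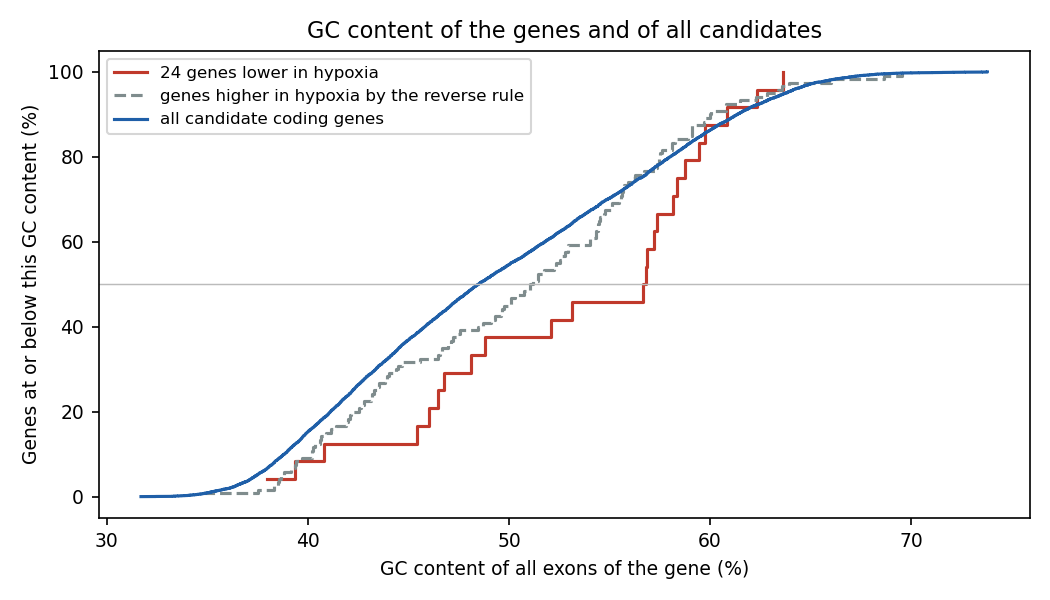
Share of genes (%) at or below each exon GC content (%), for the 24 genes (red), the genes higher in hypoxia by the reverse rule (dashed grey) and all candidates (blue). The red curve crosses 50% near 56.7% GC, to the right of the candidates at 48.5%.

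The libraries themselves differed in GC trend, with both signs in each oxygen group. Over the candidates, the median log2 deviation of genes above the upper quartile of GC content minus that of genes below the lower quartile was -0.32, 0.59 and -0.34 in hypoxia libraries 1, 2 and 3. It was 0.85, 0.18 and -0.98 in normoxia libraries 1, 2 and 3. Normoxia library 3 was thus the most AT-favouring library and normoxia library 1 the most GC-favouring one. Within the set, 12 genes were highest in normoxia library 3 (median GC 50.6%), and 8 were lowest there among the normoxia libraries (median GC 57.0%). Of the candidates, 42.1% were highest and 44.9% lowest in normoxia library 3. Across the 24 genes, GC content and the log2 ratio of normoxia library 3 to the mean of libraries 1 and 2 had a Pearson r of -0.49 and a Spearman rho of -0.35. Over 9263 candidates these were -0.65 and -0.67. These correlations are across genes of the same 3 libraries and are a description.

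**Figure D3:**
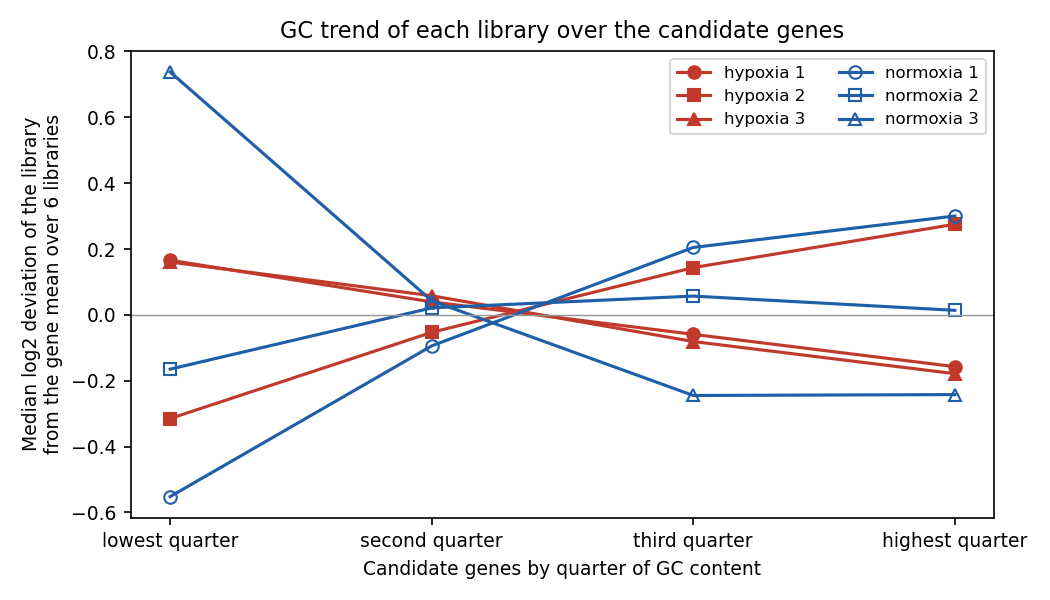
Median log2 deviation of each library from the gene mean over 6 libraries, in candidate genes grouped by GC content at its quartiles. Normoxia library 3 (open triangles) is high at low GC content and low at high GC content, and normoxia library 1 (open circles) and hypoxia library 2 (filled squares) rise.

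**Figure D4:**
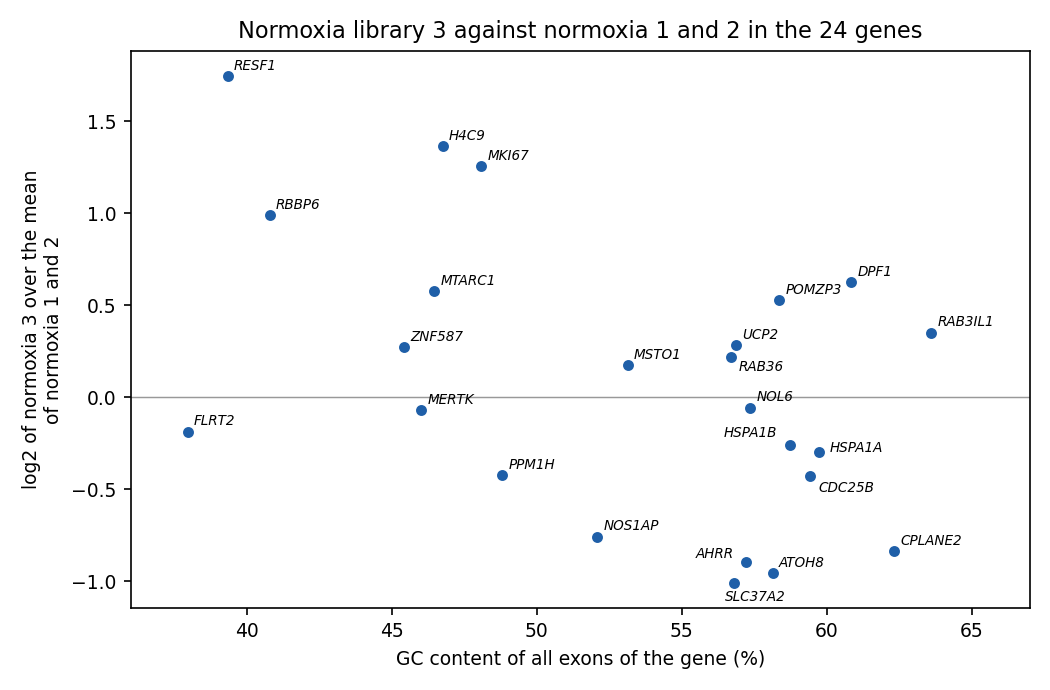
Each of the 24 genes by exon GC content (%) and the log2 ratio of normoxia library 3 to the mean of normoxia libraries 1 and 2. RESF1, H4C9, MKI67 and RBBP6, at 48.1% GC or less, are the 4 highest, while AHRR, ATOH8 and SLC37A2 are among the lowest.

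Genes that reached the ratio with overlapping groups had another GC content. A ratio of 0.6 or less was reached by 139 candidates (1.5%), of which 115 had overlapping groups. These 115 genes had a median GC content of 39.1%, and 83.5% of them were highest in normoxia library 3 among the normoxia libraries, beside 12 of the 24 genes and 42.1% of the candidates. In the median of the 115, normoxia library 3 stood 5.54 times above the mean of libraries 1 and 2, and in the 24 genes the median was 1.04. The 115 and the 24 genes were separated by the overlap of these same values, so the contrast between them follows in part from the choice and supports nothing. The lowest ratios of the 115 were in ESF1 (0.285), FAM111B (0.303) and CENPE (0.317). ESF1, a nucleolar protein, had 217, 123 and 236 scaled reads in hypoxia and 117, 121 and 1784 in normoxia, so that 1 normoxia library carried the whole difference. Without regard to the ratio, 255 candidates (2.75%) had all hypoxia libraries below all normoxia libraries, with a median GC content of 52.5%.

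At the edges of the rule, the 3 genes just inside the ratio were ZNF587 (0.5996), HSPA1A (0.599) and RAB36 (0.584). The 3 just outside were PIGM (0.606), PEG10 (0.607) and SHANK1 (0.607), whose groups also did not overlap. NOS1AP and MTARC1 had the lowest normoxia means inside, 108 and 110.1, and SYNJ1 and NEK8 the highest outside, 97.7 and 88.8.

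Membership held for some genes under every scaling and left-out library that was run, and for others it rested on 1 library. With a correction for the GC trend 30 genes met the rule, 20 of the 24 among them. FLRT2, DPF1, MSTO1 and HSPA1A dropped out. With TMM scaling HSPA1A and ZNF587 did not meet it, and with library totals all 24 genes did. For FLRT2 the ratio after correction was 0.420, but its corrected values were 329, 479 and 358 in hypoxia and 1222, 1122 and 434 in normoxia, so that normoxia library 3 lay below hypoxia library 2. Without normoxia library 3, 16 of the 24 genes met the rule, and RESF1, MTARC1, H4C9, DPF1, MKI67, RBBP6, RAB36 and ZNF587 did not. Without normoxia library 1, SLC37A2, NOS1AP, CDC25B, HSPA1A, HSPA1B and NOL6 did not. Without hypoxia library 3, HSPA1A, HSPA1B, NOL6, MSTO1, RAB36 and ZNF587 did not meet the rule, and without hypoxia library 2 MSTO1 did not. With each of the 6 libraries left out in turn, 9 genes stayed: RAB3IL1, AHRR, ATOH8, FLRT2, POMZP3, CPLANE2, PPM1H, MERTK and UCP2. Leaving out a library cannot make separated groups overlap, so only the limits on the ratio and the mean could fail here. Staying is thus a description of the values that the rule used. Of these 9, FLRT2 alone was lost under the GC correction.

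**Figure D5:**
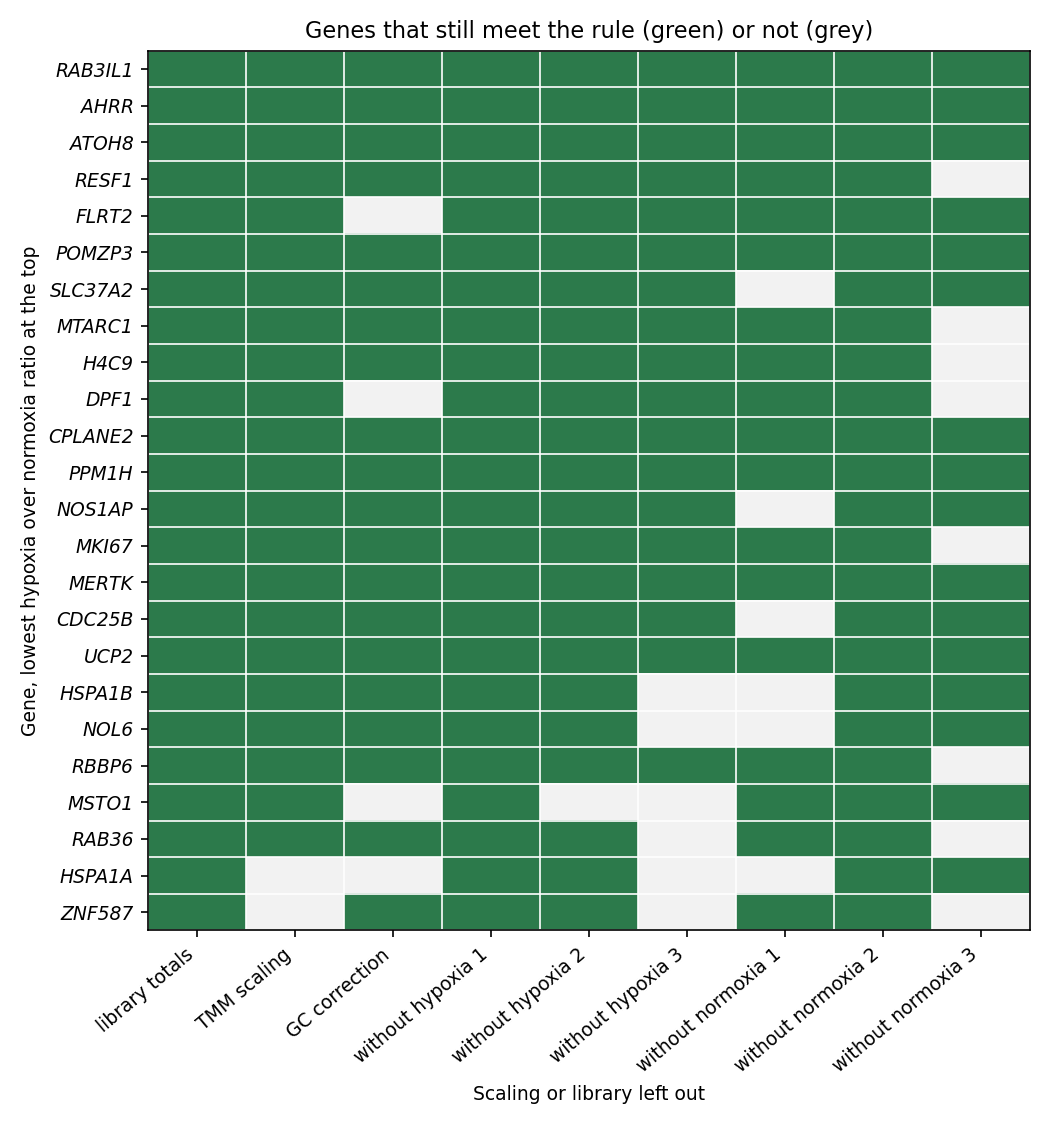
For each of the 24 genes (rows, lowest ratio at the top), whether it met the rule (green) or not (grey) under 3 other scalings and with each library left out (columns). RAB3IL1, AHRR, ATOH8, POMZP3, CPLANE2, PPM1H, MERTK and UCP2 are green in every column.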

How the data were processed

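The deposited signal, named FPKM in the table, is whole read counts per gene divided by 1 size factor per library: 100% of values are whole multiples of a step, within 0.05 of a step. Per the submitters' processing notes, CASAVA, HISAT2 2.0.5 and featureCounts 1.5.0-p3 were used. They also name the mouse build mm9, although all gene identifiers are human. Build, annotation and strand setting: not given in the sources used here. Lengths, GC content and biotypes are from GENCODE 29, matched by identifier, and promoters from RefSeq (GRCh38.p14).

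For tests, values were divided by exon length and the mean library total (FPKM scale), kept at 1 FPKM or more in at least 3 libraries, and log2(FPKM + 0.1) was fitted with limma 3.58.1 (trend, robust) in R 4.3.3, with Benjamini-Hochberg adjustment over 10237 genes. Log2 differences are on that scale and understate changes of low genes. EdgeR 4.0.16 and DESeq2 1.42.0 ran on the recovered reads. Nothing in the labels ties the replicates to separate cultures. A p-value therefore reflects the spread among these libraries, possibly technical, which exceeded sampling noise. Rule alternatives used other limits, other scalings, a GC correction in 20 bins and left-out libraries.

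Every gene of the set is named, as are its edges; relatives were added after the set was known. The genes and lists were chosen with earlier results of these data known. Other divisions of the 6 libraries were not analysed here.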

Additional observations from a re-analysis of the deposited data

How the results depend on the processing

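The number of genes meeting the rule follows its limits: 6 at a ratio of 0.5 or less, 76 at 0.7 or less, 10 at a mean of 500 or more, 139 with overlap allowed, and from 29 to 151 with 1 library left out, where fewer values make non-overlap easier. It was 36 with library totals, 22 with TMM scaling, 33 at a mean of 50 or more and 30 with the GC correction. For the reverse rule the counts were 79, 186 and 76 at those first 3 limits, and 121 to 313 with 1 library left out. Without hypoxia replicate 2 more genes met the rule than its reverse, 151 against 121. The median GC content was 39.97% with overlap allowed and 41.6% to 56.8% with 1 library left out, below the candidates' 48.5% without normoxia replicate 1 (41.6%) and without hypoxia replicate 3 (46.8%), and it moved by less than the SD over the 24 genes under the other alternatives. The median exon length was 4800 to 8705 bases with 1 library left out, with the highest value without normoxia replicate 1, beside 5353. Genes of the set in the fixed lists, an alternative added after seeing the data, numbered 15 with overlap allowed and 3 to 16 with 1 library left out.

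Limma called 10 genes, but 4 with no filter on low values, 28 with the GC correction, 58 by DESeq2 and 1 to 24 with 1 library left out. Genes called lower numbered 0, but 1 with a pseudocount of 1, 1 with no filter, 1 with the GC correction, 6 by DESeq2 and 0 to 1 with 1 library left out. DESeq2 called 2 of the 24 genes, and the other fits 0. Deviations of same-numbered libraries from their group means had an r of -0.40, 0.24 and 0.22. The highest values were 0.61 for hypoxia 2 with normoxia 1 and 0.50 for hypoxia 1 with normoxia 3. Each of these 2 pairs shares the sign of its GC trend, so the correlations cannot show whether the numbers pair the libraries. With a replicate block 19 genes passed, 0 of them lower. With a replicate block and GC correction 32 passed, 2 of them lower.

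Of 216 recomputed ratios of the 24 genes, 0 reversed and 4 moved beyond the spread, all without normoxia replicate 3. They lay between 0.326 and 0.777. The causes were not tested.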
